A study of Bos taurus with 4 samples.

Results

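Caspases are proteases that carry a cysteine in their active site and cut their substrates after aspartate. CASP2, CASP8 and CASP9 are initiators of cell death, which are switched on when adaptor proteins bring their copies together, and CASP6 is an executioner that cuts structural proteins. CASP1 and CASP4 are inflammatory caspases, which process interleukin precursors or sense bacterial lipopolysaccharide and cut the pore-forming protein GSDMD. In the male germ line, caspases are known both for the death of surplus or damaged germ cells and for the removal of cytoplasm as spermatids become spermatozoa.

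The 6 caspase genes CASP1, CASP2, CASP4, CASP6, CASP8 and CASP9 were examined in sperm RNA, and all 15 sample probes that carry one of these gene names were taken, of 51282 probes with 32429 gene names on the array. CASP4 and CASP8 had 4 probes each, CASP1, CASP2 and CASP6 had 2 each and CASP9 had 1, and each probe was a single spot of 60 bases on an array. The samples were 2 pools of Percoll-selected spermatozoa from high-fertile Murrah buffalo breeding bulls and 2 pools from low-fertile bulls. Each pool mixed equal amounts of total RNA from 2 bulls, bulls were classed by field conception rate, and no treatment was given to either group. The array was designed on cattle transcripts, and the labels give the organism as cattle although the RNA came from buffalo, so bases at which buffalo differs from the probe were not known. In pooled RNA, fewer cells of a type and less RNA per cell cannot be told apart.

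The processed signal is the spot's brightness after background subtraction, in scanner units, and log2 values are relative to the 75th percentile of the array. A spot counts as detected where its mark in the scanner output reads well above background. Testing was limited to probes detected on both arrays of either group. The 4 arrays had between 13033 and 25642 probes well above background, with the lowest number in low-fertile pool 2, where negative-control spots had a median processed signal of 6.36 against 3.35 to 3.95 on the other arrays. The high-fertile and low-fertile pools lay in different rows of the slide, so slide position and fertility group cannot be told apart. Of 18 sperm marker genes, 4 were detected on all 4 arrays. Their processed signals were 245 to 263 for ACR, 244 to 310 for ODF1, 46.5 to 71.6 for PRM1 and 48.8 to 66.5 for TNP1. Another 6 were detected on none (AKAP3, AKAP4, SMCP, LDHC, PGK2 and CRISP2).

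The probes with tested values are shown because the gene is read only through these bases, and the CASP4 probes gave different answers. All are written 5′ to 3′ in lower case with no base marked, as the array files give them, and for the CASP4 probes from bases 1110 and 1470 only the first 30 bases are given. Positions in a transcript are those of the array files, which place the CASP4 probe from base 170 on a different transcript model from the other 3, and coding or untranslated parts were not determined here.
CASP4 from base 897: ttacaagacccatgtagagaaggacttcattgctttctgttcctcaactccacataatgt
CASP4 from base 1110: tgaacgactctctatgacaagatatttcta
CASP4 from base 1470: aaactgggtcacctgctcctttgatcactc
CASP1 from base 1101: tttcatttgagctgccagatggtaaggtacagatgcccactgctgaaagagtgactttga
CASP2 from base 1060: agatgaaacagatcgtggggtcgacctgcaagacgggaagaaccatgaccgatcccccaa
CASP8 from base 1515: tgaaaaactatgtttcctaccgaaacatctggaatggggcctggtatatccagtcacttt

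Over the 15 probes and 4 arrays, 25 of 60 spots were well above background. The number of caspase probes detected was 7 and 6 in high-fertile pools 1 and 2, and 7 and 5 in low-fertile pools 1 and 2. Detected on all 4 arrays were 4 probes, on some arrays 4, and on none 7. The filter left 6 probes of 4 genes (CASP1, CASP2, CASP4 and CASP8), and no probe of CASP6 or CASP9 was tested.

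**Figure D1:**
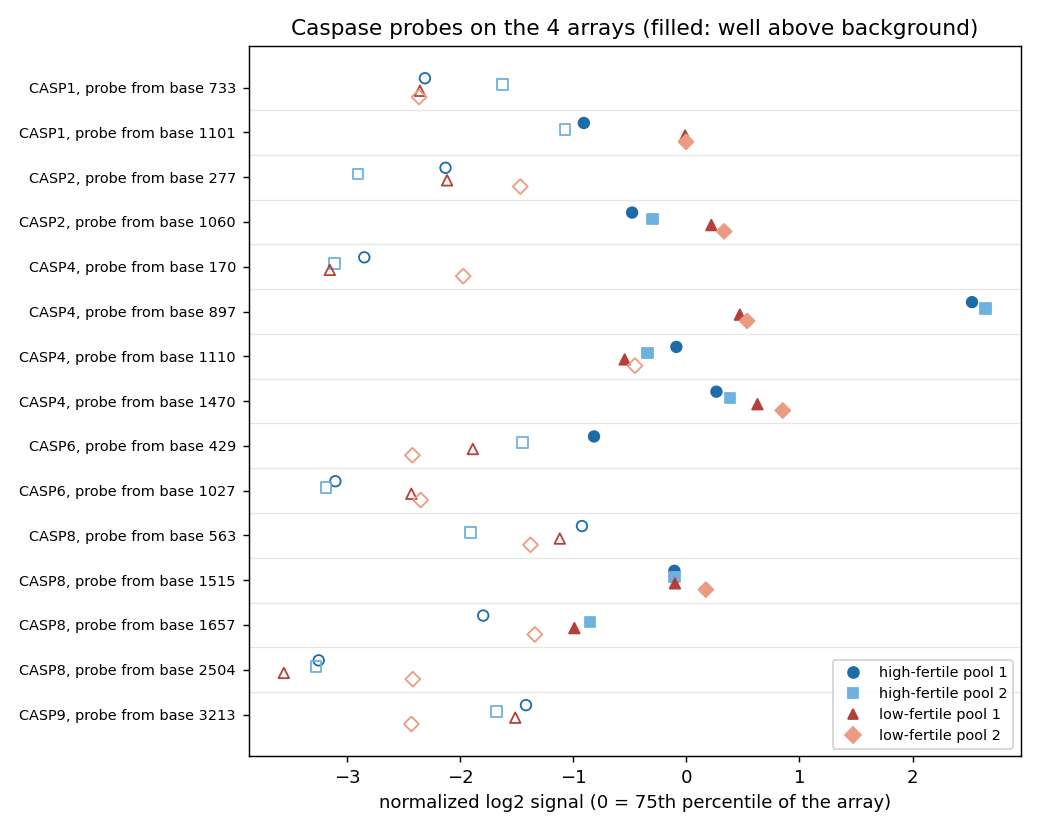
Normalized log2 signal (x axis, 0 is the 75th percentile of the array) of the 15 caspase probes (y axis, gene and start of the probe in its transcript) in each of the 4 pools. Filled symbols are spots well above background and open symbols are not. The CASP4 probe from base 897 lies at 2.53 and 2.64 in the high-fertile pools and at 0.47 and 0.54 in the low-fertile pools, and no other probe has its groups so far apart.

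Among the tested probes, 1 was lower and 2 were higher in the low-fertile pools at an adjusted p under 0.05 in limma, and the other 3 did not pass. Of all 21033 probes tested, 26.8% passed, 17.6% as lower and 9.22% as higher. The pools of the groups lay apart in all 6 tested caspase probes, 2 as lower and 4 as higher, against 69.1% of all probes tested (35.5% as lower and 33.6% as higher). The median log2 difference (low-fertile minus high-fertile) of the 6 probes was 0.28, beside -0.0047 over all probes tested. The probe that fell was a CASP4 probe and those that rose were a CASP1 and a CASP2 probe. The CASP1 probe entered the test only through the low-fertile group, where it was high, and another CASP4 probe only through the high-fertile group, so these counts and the median are descriptions. Where detection on all 4 arrays was required, the CASP1 probe was not tested and 2 caspase probes passed, the same CASP4 and CASP2 probes.

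CASP4 is the bovine gene that RefSeq also lists as CASP13, and its human counterpart acts in the non-canonical inflammasome. Its probe from base 897 (A_73_P498493) had processed signals of 211 in high-fertile pool 1 and 232 in high-fertile pool 2, where low-fertile pool 1 had 51.4 and low-fertile pool 2 had 47.4. Both low-fertile pools lay far below both high-fertile pools, and the spot was well above background on all 4 arrays. The normalized log2 signal was 2.59 ± 0.08 (SD, n = 2 pools) in the high-fertile group and 0.51 ± 0.05 (SD, n = 2 pools) in the low-fertile group. The log2 difference was -2.08 (standard error 0.144, adjusted p = 0.00221, limma), a 4.23-fold lower signal, with a 95% interval from -2.44 to -1.72. Of the 21033 probes tested, 520 had a lower difference. The fall was -1.17 (adjusted p = 0.0002, limma) under normexp background correction, a model-based subtraction with an added offset that shrinks the changes of dim spots, and it did not pass without a filter on dim probes (adjusted p = 0.115, limma) or by the methods' t-test after adjustment (adjusted p = 0.0750).

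With arrays scaled on the 75th percentile, none of the 3 other CASP4 probes passed the test as lower. The probe from base 1110 (A_73_P110811) gave 34.5 and 29.2 with high-fertile RNA against 25.4 and 23.8 with low-fertile RNA, and it was not detected in low-fertile pool 2. Its low-fertile values were lower, and the log2 difference of -0.28 (standard error 0.161, adjusted p = 0.238, limma) did not pass, with a 95% interval from -0.69 to 0.12, although it passed under spike-in normalization, which scales arrays on added control RNA, at -0.66 (adjusted p = 0.0320, limma). The probe from base 1470 (A_73_P032741) was well above background on all 4 arrays, with 44.1 and 48.5 for the high-fertile group against 57.3 and 58.9 for the low-fertile group. Here the low-fertile values were the higher ones, and the log2 difference of 0.41 (standard error 0.158, adjusted p = 0.109, limma) did not pass, with a 95% interval from 0.02 to 0.81. It was 0.25 (adjusted p = 0.0339, limma) under normexp and 0.04 (adjusted p = 0.806, limma) under spike-in normalization. The probe from base 170 (A_73_115957) was detected on no array, with signals between 4.2 and 8.3 and its highest value in low-fertile pool 2.

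**Figure D2:**
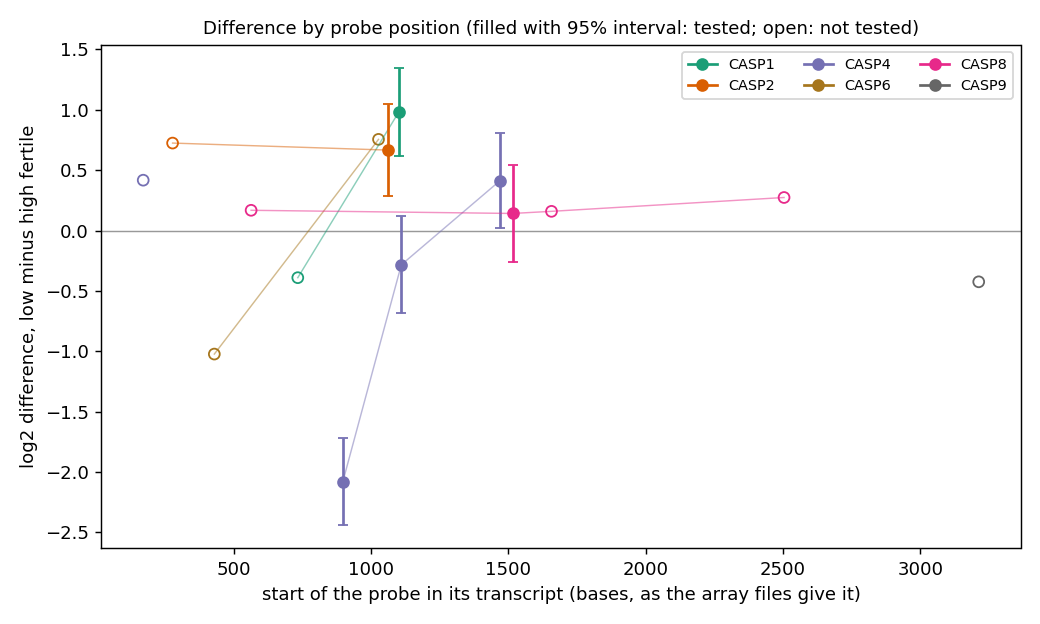
Log2 difference between the low-fertile and high-fertile pools (y axis) against the start of each probe in its transcript (x axis, bases), with thin lines joining probes that the array files place on the same transcript of a gene. Filled points with 95% intervals were tested and open points were not. The 3 tested CASP4 probes, which share a transcript, lie at -2.08 (base 897), -0.28 (base 1110) and 0.41 (base 1470), and the open CASP4 point at base 170 belongs to another transcript and was detected on no array.

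On Btau_3.1, the build of the array files, the 4 CASP4 probes lie in order on chromosome 15, at chr15:2101336-2106635, chr15:2109164-2110642, chr15:2112606-2115955 and chr15:2116256-2116315. The CASP1 probes lie beside them at chr15:2088877-2088936 and chr15:2094748-2094807. The CASP4 probes from bases 170, 897 and 1110 cover 5300, 1479 and 3350 bases of the genome, which is more than their 60 bases, so the files place each of them across at least 1 intron, whereas the probe from base 1470 is contiguous. The content of G and C was 40.0% in the probes from bases 170, 897 and 1470 and 35.0% in the probe from base 1110.

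Because all CASP4 probes sit on the same array, the ratio between them does not depend on the shift that scales an array. It does depend on background correction, and the ratios below use the processed signal. Under normexp the log2 differences were -1.17 for base 897, -0.14 for base 1110 and 0.25 for base 1470, so each ratio changed less than below. The log2 ratio of the probe from base 897 to that from base 1470 was 2.26 on both high-fertile arrays, compared with -0.16 and -0.32 on the low-fertile ones. The mean ratio thus changed by -2.49 on the log2 scale between groups that did not overlap, with SDs of 0.002 and 0.11 (n = 2 pools each). The probe from base 1110 was not detected in low-fertile pool 2, so ratios with it on that array are taken against a spot at background. Against it, the probe from base 897 had a log2 ratio of 2.61 and 2.99 in high-fertile RNA, and of 1.02 and 0.99 in low-fertile RNA, a change of -1.80. The ratio of the probe from base 1110 to that from base 1470 changed by -0.70, from -0.35 and -0.73 to -1.17 and -1.31. For each of the 3 pairs the two-sided exact permutation p was 0.333, and 0.333 after Benjamini-Hochberg adjustment over the 3 pairs, the smallest value that 2 pools against 2 can give. The probes from bases 897 and 1470, both detected on all 4 arrays, were thus unequal in their change by more than the spread between pools, although this design cannot bring such a test below that p.

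**Figure D3:**
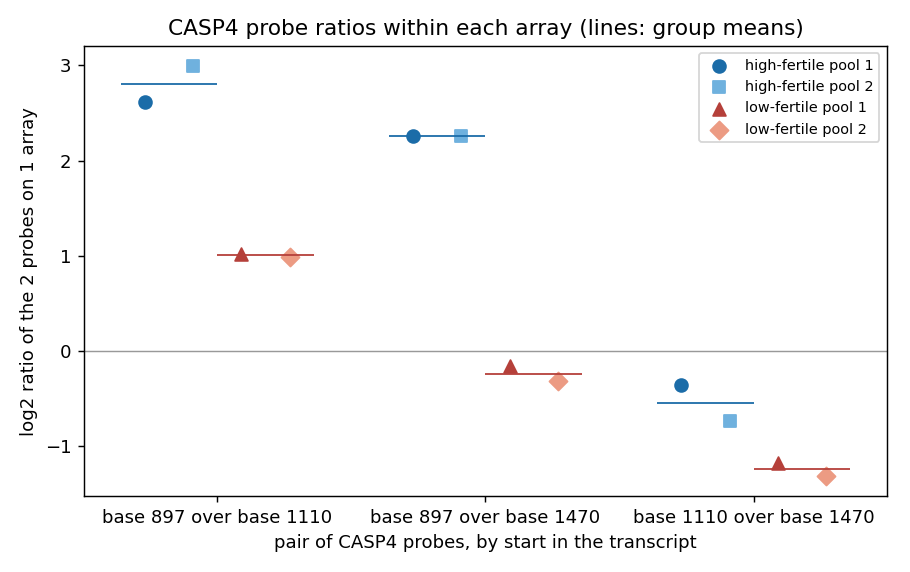
Log2 ratio between pairs of CASP4 probes on the same array (y axis) for the 3 pairs of tested probes (x axis, named by their start in the transcript), with 1 symbol per pool and a line at each group mean. In every pair both low-fertile pools lie below both high-fertile pools, with the widest gap for base 897 over base 1470. The base 1110 spot was not detected in low-fertile pool 2.

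The spot of the CASP4 probe from base 897 lies in the outermost column of the array, at row 296 and column 1. None of its 6 nearest spots differed by over 2 log2 units from the mean of the other arrays, and the same held around the other 14 caspase spots, with no outlier or saturation mark on any of them. This check sets 1 array against the rest, so a local shift shared by both arrays of a group could stay under the limit. The 100 tested probes whose first spot is in that column had a median log2 difference of -0.11, and 26.0% of them passed as lower against 17.6% of all probes. In that column 5 probes had a lower difference than CASP4. The part of the position on the array in the CASP4 value was not tested beyond these counts.

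The genes with the pattern most like that of this CASP4 probe were taken as the 5 nearest tested probes with a gene symbol by Euclidean distance over the 4 arrays, after each probe was centred on its own mean. They were FAM72A at a distance of 0.051, RPL5 at 0.063, TMEM67 at 0.083, SEC14L1 at 0.085 and HMGN1 at 0.099. Their log2 differences ran from -2.16 to -2.03. Of these probes, that of RPL5, a protein of the large ribosomal subunit, was well above background on all 4 arrays. With 4 arrays, nearness over so few points is a description only.

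CASP1 cuts the precursors of interleukin 1 beta and interleukin 18. Its probe from base 1101 (A_73_P074881) read 19.6 and 17.7 for high-fertile bulls, and 36.7 and 32.6 for low-fertile bulls. Both low-fertile values were higher, but the spot was well above background in high-fertile pool 1 and not in high-fertile pool 2, so the probe passed the filter only through the group in which it was high and the size of its difference is uncertain. The normalized log2 signal was -0.99 ± 0.12 (SD, n = 2 pools) in the high-fertile group and -0.01 ± 0.01 (SD, n = 2 pools) in the low-fertile group. The log2 difference was 0.98 (limma, standard error 0.147, adjusted p = 0.00832), and 683 of the 21033 probes tested had a higher difference. Under normexp background correction the difference was 0.19 (adjusted p = 0.0567, limma), under spike-in normalization it was 0.61 (adjusted p = 0.0327, limma), and without high-fertile pool 2 it was 0.90 (adjusted p = 0.0525, limma). The CASP1 probe from base 733 was detected on no array and read 7.4 and 12 in high-fertile RNA against 7.2 and 6.3 in low-fertile RNA.

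CASP1 is also expressed in leukocytes, which semen can hold and which the Percoll selection of the spermatozoa is meant to remove. Of 16 leukocyte marker genes, 13 were detected in each high-fertile pool, 13 in low-fertile pool 1 but 8 with pool 2 of that group, and S100A9 and CD3E were detected on no array. Of the 12 that were tested 1 rose and none fell (8.33% called), against 9.6% called higher and 16.3% called lower of all genes, each read from its brightest probe, and their median log2 difference was 0.10. The gene that rose was PTPRC, the common leukocyte antigen, with a log2 difference of 0.78 (standard error 0.148, adjusted p = 0.0160, limma) and signals of 6981 and 7126 for high-fertile bulls, and of 11503 and 11388 for low-fertile bulls. The summed normalized level of the list, in units of the 75th percentile of the array, was 565 to 596 for the high-fertile group and 784 to 867 for the low-fertile group, but PTPRC and LYZ made up 527 to 560 and 749 to 827 of it. The other 14 markers summed to 35.98 and 38.3 with high-fertile RNA, against 35.4 and 39.4 with low-fertile RNA, and these ranges overlapped. In the sperm, epithelium, red cell and testicular somatic lists 1 gene each rose as well, PRM1 by 0.67, CLDN7 by 0.80, HBB by 1.24 and STAR by 0.79 on the log2 scale. HBB was detected on 1 of the 2 high-fertile arrays and passed the filter only through the group in which it was high, so the size of its difference is uncertain. The part of other cells in the CASP1 value was not tested.

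CASP2 starts cell death after DNA damage or faulty division when it is held in the PIDDosome, the complex of PIDD1 and CRADD. Its probe from base 1060 (A_73_109682, chr4:110744094-110747914) read 26.3 and 30.2 in high-fertile RNA, against 43.2 and 41.2 in low-fertile RNA, and was well above background on all 4 arrays. The low-fertile values were higher without overlap. The normalized log2 signal was -0.39 ± 0.13 (SD, n = 2 pools) against 0.28 ± 0.08 (SD, n = 2 pools). The log2 difference of 0.67 (limma, standard error 0.153, adjusted p = 0.0291) had a 95% interval from 0.28 to 1.05. It did not pass with any single pool left out, where the adjusted p was 0.135 when high-fertile pool 1 was dropped, 0.0801 for high-fertile pool 2, 0.0525 for low-fertile pool 1 and 0.0899 for its partner pool 2. It was 0.18 (adjusted p = 0.0583, limma) under normexp background correction and 0.30 (adjusted p = 0.150, limma) under spike-in normalization. The CASP2 probe from base 277 was detected on no array, with signals from 5.0 to 11.8, and its spot also lay in the outermost column.

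CASP8 passes on signals from death receptors. Its probe from base 1515 (A_73_P309506, chr2:94174304-94174363) read 34.1 and 34.5 for high-fertile bulls, and 34.5 and 36.8 for low-fertile bulls, well above background on all 4 arrays. The values of 3 pools were nearly equal, and low-fertile pool 2 was a little higher. The log2 difference of 0.14 (standard error 0.161, adjusted p = 0.544, limma) did not pass, and its 95% interval ran from -0.26 to 0.54, so changes within it were not detectable with 4 arrays. It turned to -0.23 (adjusted p = 0.2103, limma) under spike-in normalization. The probe from base 1657 was detected in high-fertile pool 2 and low-fertile pool 1 only, and its values of 10.6 and 20.6 against 18.6 and 12.9 overlapped. Neither the probe from base 563, at 9.9 to 19.4, nor that from base 2504 was detected on an array. The latter read 3.9 and 3.8 for high-fertile bulls, then 3.1 and 6.1 for low-fertile bulls, close to the median of the negative-control spots on each array.

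CASP6 cuts lamins in dying cells. Its probe from base 429 (A_73_P269146, chr6:17115533-17118582) read 20.8 and 13.6 in high-fertile RNA, against 10 and 6.1 in low-fertile RNA, and it was well above background in high-fertile pool 1 only. The low-fertile values were the lower ones without overlap. That held for 35.5% of all probes tested, a share that does not cover probes outside the test such as this one. It was not tested because it did not pass the filter. The CASP6 probe from base 1027 was detected on no array and went the other way, with 4.3 and 4.1 against 6.9 and 6.4 in the low-fertile group.

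CASP9 is the caspase of the apoptosome, which APAF1 and cytochrome c form. Its single probe, from base 3213 (A_73_P072216, chr16:49290355-49290414), was detected on no array, with 13.7 and 11.6 for high-fertile bulls, and 13 and 6.1 for low-fertile bulls. The groups overlapped and no fold is given. For the 9 probes that were not tested, signals ran from 3.1 to 20.8 and the log2 differences from -1.02 to 0.76.

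The other genes of the caspase pathways were read from 7 lists of 67 genes, of which 57 were on the array by name and 29 had a tested brightest probe. In these, 7 genes fell, none rose and 22 did not pass, which is 24.1% called against 25.9% of all 16549 genes read in this way (16.3% lower and 9.6% higher). Their median log2 difference was -0.08. The number past the threshold was 4 and 3 without high-fertile pools 1 and 2, and 12 under spike-in normalization. It was 6 where detection on all 4 arrays was required, which 19 of the genes met.

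Among 7 tested death receptor and adaptor genes 3 fell and none rose (42.9% called). Over all genes 25.9% were called and 16.3% were called lower, shares that also stand beside the counts of the lists that follow. RIPK1, a kinase that binds death receptors, fell by 1.62 in log2 signal (limma, standard error 0.162, adjusted p = 0.00324), from 241 and 293 in high-fertile RNA to 88.7 and 74.7 in low-fertile RNA. Its other probe also passed as lower, at -0.76 (adjusted p = 0.0469, limma). That probe was detected on 2 of the 4 arrays, so it passed the filter through 1 group only. CASP8AP2, which binds CASP8, fell by 1.53 on the log2 scale (adjusted p = 0.00347, limma), from 57.3 and 50.1 to 19.6 and 15.7. It was detected on both high-fertile arrays and 1 low-fertile array, so it passed the filter only through the group in which it was high, while its other probe was not detected on any array. The brightest probe of TNFRSF10D, a receptor of the TRAIL ligand, fell by 0.62 (adjusted p = 0.0361, limma), but another of its 4 probes rose by 0.89 (adjusted p = 0.0142, limma), so its probes went in opposite directions. CFLAR, an inhibitor of CASP8, was detected on both high-fertile arrays, at 18.8 and 18.5, and on neither low-fertile array, and it did not pass.

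In the PIDDosome, CRADD, the adaptor of CASP2, had signals of 291 and 277 for high-fertile bulls, and of 119 and 103 for low-fertile bulls. It fell by 1.28 in log2 signal (limma, standard error 0.142, adjusted p = 0.00395), and PIDD1 had a log2 difference of 0.03 (adjusted p = 0.902, limma). The CASP2 probe was thus higher in the group in which its adaptor was lower. Of 6 tested inflammasome genes, MEFV, which encodes pyrin, fell by 1.07 (adjusted p = 0.0286, limma) but was detected on 1 of the 2 low-fertile arrays, having passed the filter through the high-fertile group. The other 5 did not pass, among them PYCARD, the adaptor of CASP1, at 0.48 (adjusted p = 0.0671, limma).

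Of 11 tested caspase substrates, GSN, an actin-severing protein, fell by 1.00 on the log2 scale (adjusted p = 0.00878, limma), while its other probes were detected on no array. The other 10 substrates did not pass. The targets of CASP1 and CASP4 among them were IL1B at 0.11 (adjusted p = 0.606, limma), with signals of 759 to 791 on all 4 arrays, and GSDMD at 0.34 (adjusted p = 0.284, limma). Of 6 genes of the apoptosome and of mitochondrial release 2 were tested and neither passed, with DIABLO, undetected on 1 low-fertile array, at -0.62 (adjusted p = 0.0562, limma) and AIFM1 at -0.28 (adjusted p = 0.289, limma), and cytochrome c (CYCS) was not detected on any array. None of 7 caspase inhibitors was tested, and XIAP and BIRC3 were not detected on any array.

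**Figure D4:**
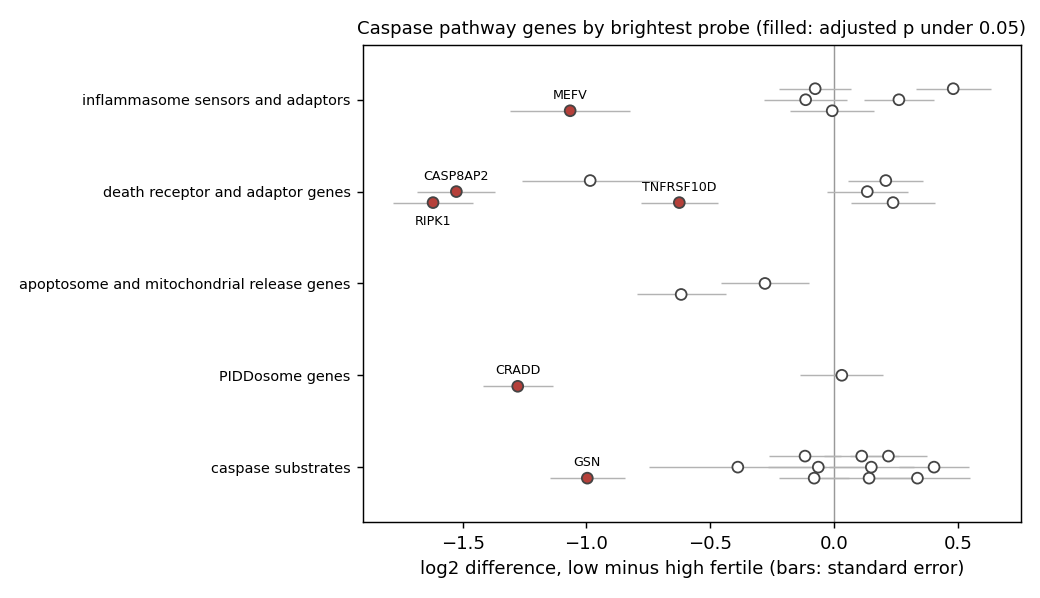
Log2 difference between low-fertile and high-fertile pools (x axis, bars are standard errors) of 28 tested genes from 5 of the caspase pathway lists, each read from its brightest probe and placed by list (y axis). Filled points are the 6 genes past an adjusted p of 0.05, all of them lower, and open points are the 22 that did not pass.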

How the data were processed

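RNA of 4 pools of buffalo spermatozoa, 2 per fertility group and 2 bulls per pool, was labelled with Cy3 by an oligo-dT method and hybridized to 4 cattle arrays of 1 slide. The authors deposited Feature Extraction 11.5.1.1 output with linear intensity values per spot, background-subtracted within each array, and also log2 values that GeneSpring GX 12.6 had normalized to each array's 75th percentile. The deposited log2 columns had medians of -1.14, -1.14, -1.13 and -1.47 and lay within 0.031 of the recomputed values at every caspase probe, so scale and direction were known and no centring over samples was seen.

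Values were recomputed from the scanner files with Python 3.11.15, pandas 2.3.3 and numpy 2.4.6. After outlier spots were dropped, log2 processed signals were averaged per probe, less the 75th percentile over sample probes. Marks of a probe needed a share of 0.5 or more of its spots. The fit in limma 3.58.1 (R 4.3.3) used the 21033 probes detected in both pools of either group, with Benjamini-Hochberg adjustment over all of them. The fit was tested on simulated data. The methods' t-test, with equal variances, was an alternative. A gene was read from its brightest probe by mean signal.

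The members, the gene lists and the alternatives were chosen with earlier results of these data known. Named were every caspase probe, the pathway genes past an adjusted p of 0.05 with the largest change (up to 3 lower and 3 higher per list), and the 5 genes nearest in pattern to CASP4. Other genes of these lists named as partners, substrates or undetected members were chosen after their values were seen. The list of other caspases is counted in the totals, and its members are not reported here. Marker lists of sperm, leukocytes, epithelium, red cells and testicular somatic cells held 18, 16, 10, 7 and 10 genes. Of the 8, 12, 7, 3 and 9 tested, 1 in each rose and none fell (that of the red cell list tested only through the group in which it was high), against 9.6% higher and 16.3% lower of all genes. With 4 arrays, precision is limited by their number. Coordinates are those of Btau_3.1 in the array files, and RefSeq (ARS-UCD2.0) served for gene names only.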

Additional observations from a re-analysis of the deposited data

How the results depend on the processing

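The CASP4 probe from base 897 stayed lower in every fit run, from -2.45 under spike-in normalization to -1.17 under normexp, and passed in all but 2: without a filter on dim probes the adjusted p was 0.115 in limma and under the methods' t-test 0.0750. Those 2 settings called 0 of all probes, 0 caspase probes and 0 pathway genes, where without a filter 9278 probes, 5 caspase probes and 10 pathway genes had an unadjusted p under 0.05 in limma. By the methods' t-test, 6084 probes, 3 caspase probes and 9 pathway genes had one.

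With each pool left out, where the lone pool of a group is taken to vary like the other group, 2640 to 4989 probes, 1 to 2 caspase probes and 3 to 7 pathway genes passed. Pathway genes numbered 11 under normexp, 12 after scaling on spike-in controls, where the median difference of all tested probes became -0.38, and 4 where a gene was read as the median of its probes. The CASP8 probe from base 1515 turned to -0.23 under spike-in normalization (adjusted p = 0.2103, limma). The CASP4 probe from base 1470 passed under normexp (0.25) and that from base 1110 under spike-in normalization (-0.66). The cause was not tested.

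Same-numbered pools hold different bulls and are not pairs (r = 0.0055 between the pool differences of the groups, across 21024 probes). With the replicate block 5331 probes, 3 caspase probes and 7 pathway genes passed, and no call of a caspase probe changed.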
